A study of Mus musculus with 70 samples.

Results

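Naive C3H ganglia were compared with naive ganglia of 8 other mouse strains. The members were the 4 arrays labelled C3H and naive, out of 70 labelled arrays in all, and they were set against the equally weighted mean of the naive groups of 129, AJ, C57, CAST, DBA, NOD, NZO and WSB, which held 31 arrays (3 of AJ and 4 of each other strain). The tissue was the dorsal root ganglion (DRG), a cluster of sensory neurons and their supporting cells next to the spinal cord, left uninjured in these groups. Each sample was total RNA from 6 ganglia pooled over 3 mice, and the labels call the 4 samples of a group biologically distinct. The labels give strain, treatment and tissue, and no substrain, sex, age or spinal level. The same 9 strains were also sampled after axotomy, the cutting of the neurons' axons (label AX5D, read as 5 days), in 4 C3H and 31 other arrays, and those arrays served as a second set of samples.

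Inbred strains carry fixed but different alleles at many genes, so a transcript can differ between strains in uninjured tissue. A ganglion holds several cell types beside neurons: satellite glia wrap the cell bodies, Schwann cells wrap the axons, and blood vessels, fibroblasts, resident macrophages and mast cells lie between them. Mast cells store proteases in granules and release them with histamine. C3H and the strains 129, AJ, C57, DBA, NOD and NZO are laboratory strains, whereas CAST and WSB are wild-derived.

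The 4 C3H arrays were like the others in raw signal. Their median intensities lay between 302 and 355, within the range of 253 to 389 over all 35 naive arrays, and 13741 to 14372 probes were above background on them, against 13147 to 14521 on the 31 other naive arrays. The tissue label was checked against markers: 12 of the 14 measured nociceptor genes were above background on all 4 C3H arrays, and their mean log2 intensity was 10.26 to 10.44 on the C3H arrays and 9.83 to 10.76 on the others. Arrays in the same run of 8 neighbouring columns of the deposited table resembled each other (mean residual correlation 0.173 over 61 naive pairs, against −0.0217 between runs), and the 4 C3H naive arrays lay in 4 different runs. Of 90 named genes that passed the test, 73 kept their sign within all 4 of these runs. The 17 others are given with their values wherever the sign turned.

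In naive ganglia 1800 of 11815 genes tested (15.2%) differed between C3H and the mean of the other 8 strains at a Benjamini-Hochberg adjusted p below 0.05 in limma's moderated test. Of these, 1006 (8.51%) were higher and 794 (6.72%) lower in C3H, and the median difference over all genes was 0.000297 on the log2 scale. Most differences were small: 96 genes (0.813%) were called and at least 2-fold higher, and 96 (0.813%) were called and at least 2-fold lower, 192 (1.63%) in all. A called gene lay on the same side of each of the 8 strain means in 720 cases (6.09%), 359 higher (3.04%) and 361 lower (3.06%). For 29 genes (0.245%) all 4 C3H arrays lay above all 31 other naive arrays, and for 30 (0.254%) they lay below them. With arrays scaled to a common median in place of quantile normalization, the median over all genes shifted to −0.0349, and 649 genes were higher and 668 lower, a share of 49.3% higher where quantile normalization gave 55.9%.

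The highest differences included a pair of neighbouring kallikreins, an olfactory receptor and subunits of nicotinic acetylcholine receptors. Klk1b22 and Klk1b27 encode secreted serine proteases of the glandular kallikrein family and lie next to each other among the genes tested. Their upstream sequences are shown because both genes were high in C3H and lie in a family of near copies. The Klk1b22 stretch ends 22 bases before the start of the gene. Both were read from the RefSeq table of assembly GRCm38.p6, at chr7:44112423-44112650 for Klk1b22 and chr7:44052063-44052289 for Klk1b27, both on the plus strand. Capitals mark bases that differ or have no partner when the sequences are aligned, and 183 of 231 aligned columns (79.2%) were identical.
Klk1b22: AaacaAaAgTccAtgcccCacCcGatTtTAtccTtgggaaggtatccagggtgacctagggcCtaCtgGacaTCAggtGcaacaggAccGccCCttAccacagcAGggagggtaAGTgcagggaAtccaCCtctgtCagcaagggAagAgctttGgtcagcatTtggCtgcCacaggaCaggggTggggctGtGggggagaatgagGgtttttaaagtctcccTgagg
Klk1b27: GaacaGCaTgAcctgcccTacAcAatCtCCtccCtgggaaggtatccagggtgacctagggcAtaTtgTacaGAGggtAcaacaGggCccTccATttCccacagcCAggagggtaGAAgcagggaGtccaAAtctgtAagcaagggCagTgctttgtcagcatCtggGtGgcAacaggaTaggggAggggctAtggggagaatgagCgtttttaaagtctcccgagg

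Klk1b22 had log2 intensities of 11.24, 11.21, 10.93 and 11.15 on the 4 C3H arrays, against a lowest, median and highest of 4.78, 5.44 and 9.24 on the 31 other arrays. Every C3H array lay above every other array. The strain 129, with a mean of 9.00, was the next highest, and in the other 7 strains no array was above background. Klk1b22 was therefore at least 28.1-fold higher in C3H (measured difference 5.34, SE 0.16, adjusted p = 4.26e-37), where a strain with no array above background was set to the lowest signal above background on its arrays. This bound and those below hold for background-corrected values. A strain with only some arrays above background kept its measured mean. Where a gene higher in C3H had such a strain, the value is called a floored fold and is not a lower bound. In the authors' matrix, without background correction, the differences were smaller but still called, 3.02 for Klk1b22, 0.78 for Klk1b27, 1.72 for Olfr1463, 1.12 for Ptpn22 and −3.65 for Pdrg1. Klk1b27 had 7.68, 7.84, 7.80 and 7.73 on the C3H arrays and ran from 4.82 over a median of 5.195 to 6.58 on the others, a difference of 2.43 (SE 0.15, floored fold 3.59). Members of this family have similar transcripts, so a probe may read more than 1 of them.

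Olfr1463 encodes an olfactory receptor. It had 9.33, 9.21, 8.79 and 9.18 on the C3H arrays and 4.75, 4.93 and 5.43 as the lowest, median and highest on the others, where no array was above background. It was at least 9.11-fold higher in C3H (measured difference 4.18, SE 0.12, adjusted p = 2.94e-39), and no other gene was above background on all 4 C3H arrays and on no other naive array. Ptpn22, a tyrosine phosphatase of lymphocytes that restrains antigen receptor signalling, had 9.34, 9.31, 7.91 and 7.46 on the C3H arrays, against 5.16, 5.68 and 6.43 on the others. The C3H arrays differed widely among themselves for Ptpn22 (SD 0.96), yet the lowest of them was above all others (2.79, SE 0.20, floored fold 6.13).

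Chrnb3 and Chrna6 encode subunits of neuronal nicotinic acetylcholine receptors and are neighbours in the genome. Chrnb3 had 10.27, 10.07, 9.93 and 10.20 on the C3H arrays and 5.27, 8.04 and 9.82 as the lowest, median and highest on the others. All C3H arrays were above all others, and the 3 probes of Chrnb3 gave differences of 2.06, 2.09 and 1.84. Chrna6 had 11.96, 11.72, 11.72 and 11.81 on the C3H arrays, against 7.67, 9.87 and 11.79 on the others. The groups overlapped for Chrna6, since the means of DBA (11.65) and NZO (11.53) were close to C3H, and WSB was lowest for both genes (8.01 for Chrna6 and 5.99 for Chrnb3). Its 2 probes differed by 1.78 and 1.74. Lypd1, a Ly6 family protein that binds nicotinic receptors, had 11.40, 11.55, 12.03 and 11.77 on the C3H arrays and 7.49, 8.95 and 10.91 on the others, with DBA next at a mean of 10.74. Lypd1 was 2.64 higher in C3H (SE 0.17) and its arrays did not overlap with the others.

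Hbegf, a ligand of the epidermal growth factor receptor, had 10.59, 10.20, 10.34 and 10.41 on the C3H arrays, against 7.70, 8.33 and 9.12 on the others. It was 2.00 higher in C3H (SE 0.12) without overlap. Arv1, a lipid transport protein of the endoplasmic reticulum, was 2.12 higher (SE 0.13, at least 3.44-fold), but its C3H arrays ran from 8.89 to 9.27, near the means of NZO (8.94), C57 (8.87) and DBA (8.81). The cytochrome P450 gene Cyp2j13 was 1.81 higher (SE 0.15, floored fold 2.92), with 129 (7.82) just below C3H. For these last genes C3H shared its high level with some of the strains.

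Hbb-b2 and Eif2s3y completed the 12 highest. Hbb-b2, an adult beta-globin gene, was 2.50 higher (SE 0.29, floored fold 5.53), with C3H arrays of 9.96 to 10.60 and similar means in AJ (10.12) and DBA (9.75). The adult beta-globin locus of mice exists in haplotypes that carry different gene copies, and another copy, Hbb-bt, was lower in C3H (−1.12). Hbb-bt had a mean of 7.98 in C3H, against strain means of 10.46 to 11.73 in C57, CAST, NOD and NZO. The means were 7.01 in 129, 7.76 in AJ, 7.54 in DBA and 6.84 in WSB, so that C3H lay near these lower strains. Hbb-bt did not pass against AJ, DBA or 129 alone (adjusted p = 0.894, 0.744 and 0.13 in limma) and was higher than in WSB (1.14, adjusted p = 0.0458). Leaving out NZO ended the Hbb-bt call (−0.74, adjusted p = 0.0897), as did leaving out NOD, and within 1 run of columns the value was 0.74. The copies have similar sequences, so their probes may share signal.

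Eif2s3y is a Y-linked subunit of a translation initiation factor. It had 11.43, 11.29, 11.01 and 10.75 on the C3H arrays, against 4.94, 9.82 and 10.78 on the others, and was above background on no NOD array and on 1 of 4 WSB arrays. The difference was 2.26 (SE 0.23, floored fold 4.66), and without NOD and WSB it was 1.15 (adjusted p = 5.63e-05). The Y-linked gene Kdm5d, a histone demethylase, was 0.98 higher in C3H with no overlap of arrays (7.77 to 8.41 on the C3H arrays and 6.06 to 7.65 on the others) and was above background on every naive array of all 9 strains. Uty, also on the Y chromosome, differed by 0.37 (adjusted p = 0.146), and Xist, which is transcribed from the inactive X chromosome, by 0.11 (adjusted p = 0.761).

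**Figure D1:**
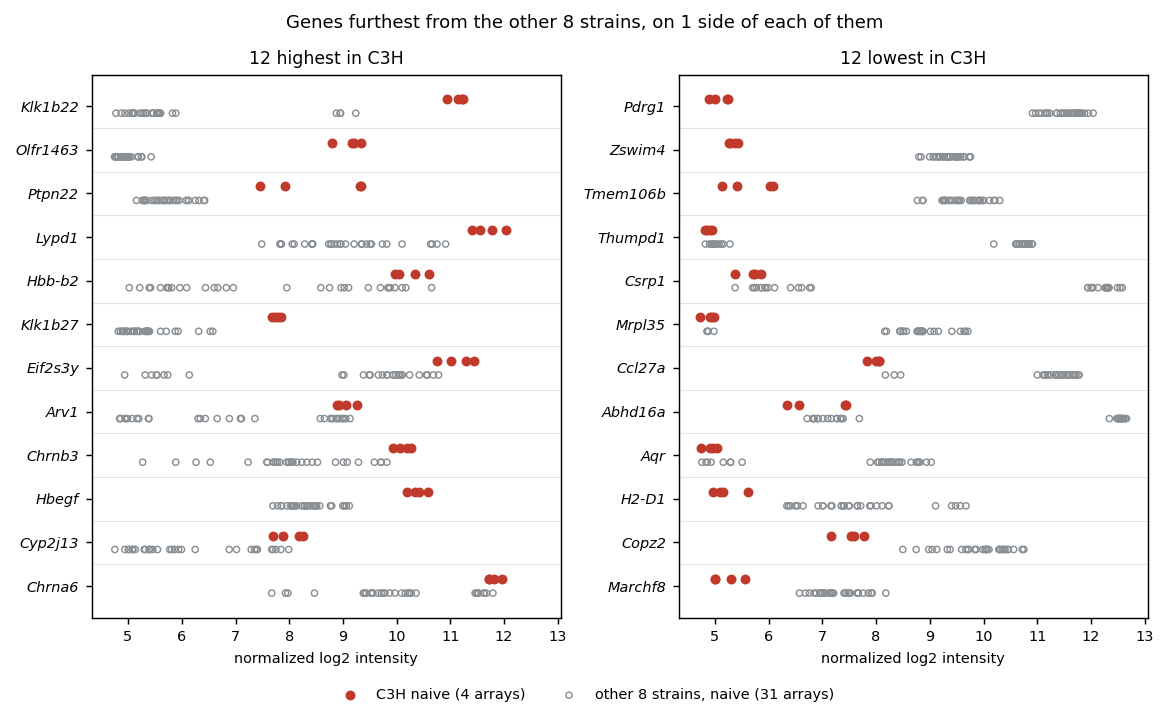
Log2 intensity (horizontal axis) of the 12 highest and the 12 lowest genes of C3H naive ganglia, 1 gene per line. Filled red dots are the 4 C3H arrays and open grey circles are the 31 other naive arrays. The C3H dots of Klk1b22, Olfr1463, Pdrg1 and Zswim4 stand clear of all other arrays, whereas those of Thumpd1, Csrp1 and Abhd16a lie among the low arrays of some other strains.

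The lowest genes included several that were at background in C3H and well expressed elsewhere. Pdrg1, a gene regulated by p53 and DNA damage, had 4.998, 4.89, 5.24 and 5.23 on the C3H arrays, against 10.91, 11.61 and 12.04 as the lowest, median and highest on the others. No C3H array was above background and all 31 others were, so Pdrg1 was at least 49.4-fold lower in C3H (measured difference −6.43, SE 0.10, adjusted p = 1.12e-54). The zinc finger gene Zswim4 had 5.28, 5.43, 5.27 and 5.37 on the C3H arrays and 8.80, 9.36 and 9.76 on the others, at least 11.03-fold lower (−4.02, SE 0.08). Tmem106b, a lysosomal membrane protein, had 5.40, 6.08, 6.02 and 5.14 on the C3H arrays, 2 of them above background, and 8.77, 9.58 and 10.30 on the others (−3.96, SE 0.19). In these 3 genes C3H stood apart from each of the 8 strains.

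Copz2, a subunit of the coatomer coat of transport vesicles, was lower by 4 probes (−2.39, −2.29, −1.61 and −1.13). Its first probe had 7.17, 7.59, 7.52 and 7.78 on the C3H arrays, against 8.50, 10.05 and 10.75 on the others. The ubiquitin ligase gene Marchf8 (−2.08, at least 2.63-fold) and Chd1, a chromatin remodeller (−1.73, at least 2.06-fold), were at background on all 4 C3H arrays and above it on all 31 others, as were Pdrg1, Zswim4 and the class I histocompatibility gene H2-D1. A second probe of Chd1 differed by −1.01.

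For the other genes of the lowest 12, C3H shared its low level with some strains. Ccl27a, a chemokine of skin, had 7.84, 8.06, 7.998 and 8.05 on the C3H arrays and 8.17, 11.44 and 11.78 on the others. The only other strain near it was AJ, with a mean of 8.32, and both probes were lower (−3.07 and −2.04). Thumpd1, a cofactor of tRNA acetylation (−3.70, at least 6.42-fold), was also at background in AJ, DBA and NZO. Csrp1, a LIM domain protein (−3.50, at least 9.68-fold), had means of 5.84 to 6.30 in AJ, CAST, NOD and WSB. Mrpl35, a protein of the mitochondrial ribosome (−3.48, at least 5.55-fold), was at background in DBA too (4.89), and the lipase gene Abhd16a (−2.88) had means of 6.96 to 7.24 in AJ, DBA, NZO and WSB. Aqr, a spliceosomal helicase (−2.66, at least 3.20-fold), was low in NOD and WSB as well, and its second probe differed by −0.41 (adjusted p = 0.191). All 24 genes at the extremes kept their call under every alternative tested. The array's probe sequences were not used here, so less RNA and weaker binding of a strain's transcript to a probe cannot be told apart for a single probe.

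Mast cell protease genes were higher in C3H than in the mean of the other strains. Of 8 listed mast cell genes, 7 were measured, 5 of these were higher and 1 lower, where 8.51% of all genes were called higher and 6.72% lower. The median difference was 1.36, against 0.000297 over all genes. The 5 higher ones encode granule proteases: the chymases Mcpt4 and Cma1, carboxypeptidase A3 (Cpa3) and the tryptases Tpsb2 and Tpsab1. Upstream sequences of 250 bases ending at the start are shown for Mcpt4, Cpa3 and Cma1, the 3 of these 5 genes that the RefSeq table of GRCm38.p6 held, because the genes were high together and the factors of the GATA family act in mast cells. They lie at chr14:56062311-56062560, chr3:20242182-20242431 and chr14:55944676-55944925, all on the minus strand and printed in the direction of transcription. Capitals mark the motif GATAA, searched on both strands (TTATC on the other), which each window holds 1 time. The motif was present in 7418 of 32851 windows of the table (22.6%).
Mcpt4: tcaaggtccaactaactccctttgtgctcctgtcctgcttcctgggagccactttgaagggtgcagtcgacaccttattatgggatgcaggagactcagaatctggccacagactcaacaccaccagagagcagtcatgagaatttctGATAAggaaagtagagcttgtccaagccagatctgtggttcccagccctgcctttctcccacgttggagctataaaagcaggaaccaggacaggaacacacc
Cpa3: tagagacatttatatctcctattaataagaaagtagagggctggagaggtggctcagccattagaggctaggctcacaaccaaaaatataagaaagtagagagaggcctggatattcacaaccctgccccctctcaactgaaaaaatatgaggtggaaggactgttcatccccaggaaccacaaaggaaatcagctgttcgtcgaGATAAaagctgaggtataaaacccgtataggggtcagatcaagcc
Cma1: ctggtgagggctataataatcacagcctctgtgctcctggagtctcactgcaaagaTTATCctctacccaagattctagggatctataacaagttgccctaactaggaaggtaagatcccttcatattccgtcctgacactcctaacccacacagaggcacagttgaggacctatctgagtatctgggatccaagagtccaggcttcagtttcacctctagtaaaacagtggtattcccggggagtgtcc

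Mcpt4 had log2 intensities of 8.22, 8.46, 8.43 and 8.35 on the C3H arrays, against 4.81, 6.99 and 8.24 as the lowest, median and highest on the 31 others (1.78, floored fold 3.13). Cpa3 had 8.67, 8.93, 8.92 and 8.95 on the C3H arrays and 5.01, 7.19 and 8.89 on the others, and its 3 probes differed by 1.61, 1.77 and 0.65. For each of these genes, 1 of the 31 other arrays reached the lowest C3H array. Tpsab1 had 7.25, 7.48, 7.56 and 7.40 on the C3H arrays, against 4.91, 5.95 and 7.60 on the others (1.36, floored fold 2.33). Tpsb2, its neighbour and close copy, had 7.32, 7.83, 8.01 and 7.89 on the C3H arrays, against 5.10, 6.31 and 8.19 (1.40), so the tryptase probes may share signal. Cma1 had 6.75, 6.97, 6.94 and 7.45 on the C3H arrays and 5.03, 6.13 and 7.71 on the others (0.85). All 5 groups overlapped with at least 1 array of another strain. Against AJ alone, Cpa3, Mcpt4 and Tpsab1 did not pass (adjusted p = 0.587, 0.284 and 0.129 in limma). Neither did Cpa3 and Mcpt4 against NOD (0.092 and 0.146), Mcpt4 against DBA (0.0887) or Tpsab1 against WSB (0.478). Against each remaining strain these genes passed.

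The other mast cell genes did not follow. Hdc, the enzyme that makes histamine, was lower (−0.54), with a mean of 6.61 in C3H and means from 5.98 to 8.22 in the other strains. Fcer1a, a chain of the high-affinity IgE receptor, differed by −0.15 (adjusted p = 0.734). Averaged over the 7 measured genes, the C3H arrays had 7.25 to 7.54 and the others 5.34 to 7.58, with AJ highest among the other strains (7.12) and CAST lowest (5.43). The counts of 5 higher and 1 lower were the same under median scaling, without CAST, and without NOD and WSB. In the authors' matrix, which has no background correction, the differences were smaller (0.72 for Mcpt4, 0.78 for Cpa3 and 0.42 for Tpsab1) and still called. In bulk ganglia, more cells of a type and more of its RNA per cell cannot be told apart.

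**Figure D2:**
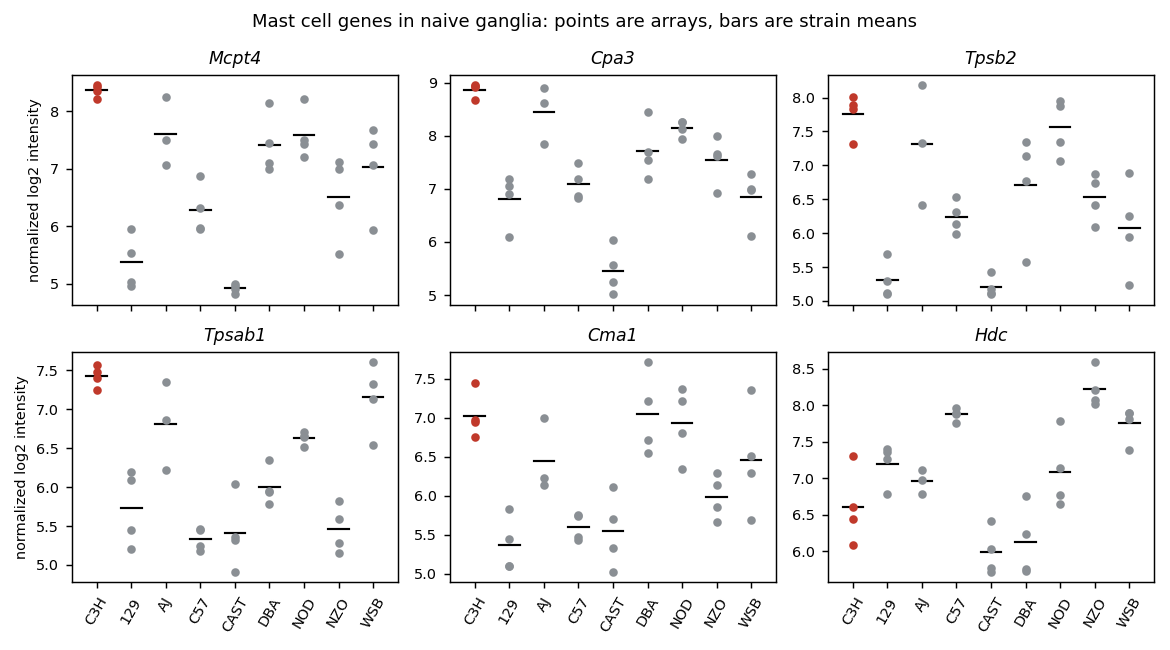
Log2 intensity (vertical axis) of Mcpt4, Cpa3, Tpsb2, Tpsab1, Cma1 and Hdc on each naive array, by strain, with C3H leftmost. The 4 C3H arrays are near the top for the 5 protease genes, and CAST is low for Mcpt4 and Cpa3, whereas Hdc has its highest values in NZO and C57.

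Most vessel genes measured were also higher in C3H than in the mean of the other strains. Of 16 measured markers of endothelium and pericytes, 11 were higher and none lower, with a median difference of 0.506, against 8.51% of all genes called higher. Rgs5, a pericyte regulator of G protein signalling, had 10.29, 10.11, 10.01 and 10.39 on the C3H arrays, against 7.47, 9.32 and 10.50 as the lowest, median and highest on the others (0.95, SE 0.14). Pdgfrb, the pericyte receptor of platelet-derived growth factor, had 8.13, 7.51, 7.70 and 7.74 on the C3H arrays, against 5.53, 7.26 and 7.96 (0.74). The groups overlapped for both genes, and Rgs5 was −0.03 within 1 run of columns. The Rgs5 mean of DBA (10.32) was above that of C3H (10.20), and C57 (10.11) and CAST (9.93) were near it. Emcn, a sialoglycoprotein of venous endothelium, was 0.93 higher, but was at background in CAST (5.32), and without CAST the difference was 0.32 (adjusted p = 0.000343). NZO (10.69) had a higher Emcn mean than C3H (10.55), and AJ (10.50) was near it. Of the 16 genes, 5 had a C3H mean above all 8 other strain means.

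The smooth muscle actin Acta2 (0.60), the endothelial receptors Eng (0.60), Tie1 (0.59), Tek (0.54) and Flt1 (0.39), the pericyte potassium channel Kcnj8 (0.58) and the junction proteins Cdh5 (0.47) and Esam (0.38) were higher as well. For Esam the mean of AJ (10.86) was above that of C3H (10.78). Pecam1 (−0.03), Vwf (0.06), Kdr (0.06), Egfl7 (0.18) and Abcc9 (0.28) did not pass the test, so the general endothelial markers Pecam1 and Vwf were near the mean of the other strains. The mean over the 16 genes was 8.67 to 8.81 on the C3H arrays and 7.93 to 8.71 on the others. Under median scaling 9 were called higher, and without CAST 10. The part of vessel and mast cell markers in the other differences was not tested.

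Glial genes differed by less than mast cell genes in size. Of 12 measured satellite glia genes 6 were higher and none lower, against 8.51% of all genes called higher, with a median of 0.216. They were the water channel Aqp4 (0.89), the glutamate transporter Slc1a3 (0.30), the endothelin receptor Ednrb (0.24), the lipoprotein gene Apoe (0.20), connexin 43 (Gja1, 0.19) and the matrix protein Sparc (0.16). Aqp4 had 9.18, 8.67, 8.93 and 8.82 on the C3H arrays, against 6.79, 8.04 and 9.70 on the others, and 129 was above C3H with a mean of 9.49. Only 1 of the 6 was called higher under median scaling, where Ednrb had an adjusted p of 0.335 and Apoe of 0.544. Without CAST, or without C57, 3 of the 6 were called. The other 2 probes of Ednrb had the same sign and did not pass (0.38 and 0.33, adjusted p = 0.0939 and 0.497). Apoe lost its call without C3H replicate 3 (adjusted p = 0.091) and was −0.07 within 1 run of columns. Among 16 myelinating Schwann cell genes (18.8% called, against 15.2% of all genes) Gldn was higher (0.36) and Drp2 (−0.44) and Fa2h (−0.31) lower. Fa2h did not pass without AJ (adjusted p = 0.0506), DBA (0.087) or NOD (0.0784), nor without C3H replicate 1, 2 or 3 (0.0947, 0.135 and 0.14). The oligodendrocyte list had 3 measured genes, of which Cldn11, a tight junction protein, was higher (1.15, and 0.69 without CAST), while Mobp and Olig1 were above background on no C3H array.

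Of 13 fibroblast genes 23.1% were called, against 15.2% of all genes. Col6a1 (0.39, and 0.42 by its second probe) and Col1a1 (0.33) were higher and the microfibril gene Mfap5 lower (−0.49). All 3 lost their call under some alternatives. Mfap5 had an adjusted p of 0.297 without C3H replicate 1 (−0.26) and of 0.0659 without NZO. Col6a1 lost its call under 10 alternatives, with an adjusted p of up to 0.323 without C3H replicate 4 (0.26), and Col1a1 lost it under 34. No skeletal muscle, adipocyte, B cell or T and NK cell marker passed the test, of 15, 4, 5 and 7 measured.

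Macrophage genes went both ways, 2 higher and 4 lower of 16 measured, against 8.51% and 6.72% of all genes. Aif1, a calcium-binding protein of macrophages, had 8.30, 8.68, 8.66 and 8.69 on the C3H arrays, against 6.08, 7.15 and 7.97 on the others, a difference of 1.44 (SE 0.14) without overlap. Its second probe was also called higher (0.78, SE 0.16), and overlap of arrays was not examined for that probe. The complement gene C1qa was 0.47 higher and its partner C1qb 0.35 lower. Ly86, a partner of the receptor RP105, had 9.21, 9.50, 9.83 and 9.78 on the C3H arrays, against 7.26, 12.60 and 13.52 on the others (−2.10, SE 0.08). WSB was lower still, with a mean of 7.40, and AJ was close to C3H with 9.99. Within 1 run of columns Ly86 was 0.47 higher in C3H. Cd163, a scavenger receptor, was 0.87 lower. Fcer1g, the shared gamma chain of Fc receptors, was lower (−1.01), but was above background on no C3H array and in no strain other than C57 (8.61) and CAST (8.39). Its difference was −0.62 without C57 and −0.65 without CAST.

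Of 10 neutrophil genes 1 was called higher (10%, near the 8.51% of all genes), S100a8 (1.24). It had a mean of 11.69 in C3H and 5.56 in WSB. Without WSB the difference was 0.54 (adjusted p = 0.434), and without C3H replicate 3 or 4 the adjusted p was 0.15 or 0.0663. No gene of the Toll-like receptor and NF-kB list passed, of 16 measured. Tlr4, the receptor for lipopolysaccharide, had a mean of 5.91 in C3H and differed by 0.03 (adjusted p = 0.956).

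Several genes of the major histocompatibility complex, which presents peptides to T cells, were lower. Of 23 measured, 10 were lower and 1 higher, with a median difference of −0.267, where 6.72% of all genes were called lower. The mean over the 23 genes was 7.13 to 7.50 on the C3H arrays and 7.51 to 8.24 on the others. H2-D1, a class I heavy chain, had 5.10, 5.62, 5.15 and 4.97 on the C3H arrays, all at background, against 6.34, 7.49 and 9.67 on the others (−2.44, at least 3.37-fold lower). H2-Q8, a non-classical class I gene, was at background in C3H and CAST and had means of 8.47 to 8.85 in AJ, DBA and NZO (−1.81, at least 2.08-fold lower). H2-Aa, a class II alpha chain, had 5.19, 5.12, 4.996 and 5.99 on the C3H arrays, against 4.99, 7.24 and 9.51 on the others (−1.68). AJ, CAST, DBA and NOD had H2-Aa means of 5.14 to 5.71, about as low as C3H, and within 1 run of columns the value was 0.43.

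The class I genes H2-Q5 (−1.01), H2-K1 (−0.97), H2-T10 (−0.85) and H2-M3 (−0.58), the class II loading genes H2-DMa (−0.53) and H2-DMb1 (−0.48) and the immunoproteasome subunit Psmb9 (−1.02) were lower too, and the class II beta chain H2-Ab1 was higher (0.40). Partners shared by the class I or class II chains did not pass: B2m, the class I light chain, differed by 0.03, the invariant chain Cd74 by −0.20 and the peptide transporter Tap1 by −0.04. Transcripts of the H2 genes vary in sequence between strains and resemble each other, and their probes may read other members.

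Of 21 interferon-stimulated genes 6 were higher and 1 lower in naive C3H ganglia, against 8.51% and 6.72% of all genes, with a median of 0.311. Usp18, which removes the modifier ISG15, had 8.56, 8.39, 8.08 and 8.37 on the C3H arrays, against 6.02, 7.14 and 9.04 on the others (1.10). Gbp3, a guanylate-binding protein, was 1.05 higher, and 0.69 without NOD and WSB. Ifit3 (0.92), Rsad2 (0.81), Ifitm3 (0.64) and the transcription factor Irf9 (0.37) were higher, and Ifi35 was lower (−0.74). The groups overlapped for Usp18, with C57 highest at a mean of 8.64. Of 10 complement and acute phase genes 40% were called, against 15.2% of all genes. The inhibitors Cd59a (0.35) and Serping1 were higher, and the acute phase protein Serpina3n (−0.55) and complement C4b (−0.71) lower. Cd59a differed by 0.18 without 129 and by 0.21 without CAST, and had an adjusted p of 0.0518 under median scaling. Its means were 12.40 in 129 and 12.58 in CAST, against 13.96 in C3H and 13.80 to 14.12 in the remaining strains. DBA, NOD and NZO lay above C3H, and against each remaining strain alone Cd59a did not pass (adjusted p of 0.0619 or more in limma). C4b was 0.01 within 1 run of columns.

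Of 14 nociceptor genes 1 was called higher (7.14%) and of 11 genes of large-diameter neurons 1 (9.09%), shares near the 8.51% of all genes. Mrgprd, a receptor of non-peptidergic nociceptors, was higher (0.52). Its mean was 10.31 in C3H and 8.05 in 129, and the call rested on 129: without 129 the difference was 0.27 (adjusted p = 0.221), and without C3H replicate 1 the adjusted p was 0.105. Among the large-diameter genes the neurotrophin receptor Ntrk2 was higher (0.27), but its other 2 probes gave 0.22 and 0.18, the mean of its probes had an adjusted p of 0.243, median scaling gave 0.175, and 1 run of columns gave a difference of −0.04. Of 15 neuropeptide genes 4 were higher and 2 lower, against 8.51% and 6.72% of all genes. Npy (−0.81) and Gal (−0.63) were the lower ones. The higher ones were Cartpt (0.82, by 2 probes), Nmu (0.63), the substance P precursor Tac1 (0.29) and Adcyap1 (0.28, with an adjusted p of 0.13 under median scaling). Cartpt had 11.40, 11.65, 11.58 and 11.81 on the C3H arrays, against 9.08, 10.85 and 11.99 on the others, and DBA and NOD had similar means of 11.69 and 11.58.

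Of 18 voltage-gated channel genes 4 were lower and 1 higher, against 6.72% and 8.51% of all genes. The potassium channel subunits Kcnv1 (−1.03) and Kcns1 (−0.63), the sodium channel beta subunit Scn2b (−0.66) and the calcium channel subunit Cacna2d1 (−0.35) were lower, and the T-type calcium channel Cacna1h was higher (0.29). Kcnv1 had 8.25, 8.59, 8.14 and 8.27 on the C3H arrays and 8.58, 9.44 and 9.73 on the others, below all strains, with NZO next at a mean of 8.73. Kcns1 was 0.14 within 1 run of columns. Of 19 transmitter receptor genes 21.1% were called, against 15.2% of all genes. Chrna6 and the GABA receptor subunit Gabra3 (0.59) were higher, and the serotonin receptor subunit Htr3b (−1.22, by 2 probes) and the ATP receptor P2rx2 (−0.64) lower. Htr3b had 9.42, 9.23, 8.86 and 8.63 on the C3H arrays, against 8.60, 10.73 and 11.66 on the others, and AJ (8.79) and DBA (8.90) were as low as C3H. Without NOD and WSB, P2rx2 differed by −0.34 (adjusted p = 0.0924).

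Several genes that injured neurons are known to induce were lower in uninjured C3H ganglia than in the mean of the other strains. Of 30 measured regeneration-associated genes 8 were lower and 1 higher, against 6.72% and 8.51% of all genes, with a median of −0.082. Atf3, a transcription factor switched on by axon injury, had 6.77, 6.34, 7.50 and 6.30 on the C3H arrays, against 6.27, 7.32 and 8.14 on the others (−0.72, SE 0.14, adjusted p = 0.000101). The groups overlapped, and within 1 run of columns Atf3 was 0.22 higher in C3H. The neuropeptides Npy (−0.81) and Gal (−0.63), the peptidase Ecel1 (−0.58), the receptor Gpr151 (−0.39) and the stress gene Gadd45a (−0.30) were lower, and the adhesion protein Flrt3 was higher (0.28). The adhesion molecule Chl1 was lower by 1 probe (−1.12), but not by the other 2 (−0.21 and −0.29), and was 0.03 and 0.09 within 2 runs of columns. By the first probe AJ (6.68), NZO (6.71) and DBA (6.80) had means near C3H (6.79), and CAST (10.17), NOD (9.51) and 129 (8.97) were highest. Gap43, a growth cone protein (−0.01), the transcription factor Jun (0.02) and Sprr1a (−0.11) did not pass the test.

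Some of these calls were not stable. Without background correction 5 of the 30 genes were lower and none higher, and the adjusted p was 0.0718 for Npy and 0.139 for Ecel1, which no C3H array had above background. Ecel1 was also above background on no array of 129, AJ, C57, DBA or NZO. Its means were highest in NOD (6.87) and CAST (6.14). Gal did not pass without C57 (adjusted p = 0.072), NZO (0.0555) or C3H replicate 4 (0.0974), or in the naive arrays alone (0.0514). Its mean was lower in WSB (9.62) than in C3H (9.74). DBA (9.81), NOD (9.85) and CAST (9.93) were near C3H, and C57 (11.47) and NZO (11.29) were highest. Of 13 activin signalling genes 15.4% were called, all lower, where 15.2% of all genes were called and 6.72% called lower. They were the subunit gene Inhbb (−0.51) and the effector Smad4 (−0.30). Inhbb lost its call without WSB (adjusted p = 0.11), without C3H replicate 2, 3 or 4 (0.0869, 0.114 and 0.114) and without background correction (0.208). Inhba, the subunit of activin A, differed by 0.21 (adjusted p = 0.521), and Fst, the activin antagonist follistatin, by −0.14 (adjusted p = 0.672). Of 9 immediate early genes 33.3% were called, against 15.2% of all genes. Arc (−0.43) and Zfp36 (−0.66) were lower and Dusp1 higher (0.34). Dusp1 had an adjusted p of 0.0646 under median scaling, and Zfp36 of 0.0594 without C3H replicate 2.

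Of 16 measured genes of cholesterol synthesis 9 were lower and none higher, against 6.72% of all genes called lower, with a median of −0.283, and the mean over the 16 genes was 10.43 to 10.54 on the C3H arrays and 10.55 to 11.22 on the others. Msmo1, which removes methyl groups from sterols, had 10.36, 10.65, 10.41 and 9.83 on the C3H arrays, against 9.73, 12.86 and 13.36 on the others (−1.51, SE 0.16). Its strain means fell into separate levels: C3H had 10.31, AJ, CAST, DBA and NOD were near it with 10.28 to 10.77, and the remaining 4 strains had 12.93 to 13.29. Mvd, a decarboxylase of the mevalonate pathway, had 8.92, 9.06, 9.29 and 9.08 on the C3H arrays, against 9.08, 9.83 and 10.53 on the others (−0.72). Lss (−0.56), the regulator Insig1 (−0.55), Cyp51 (−0.31), Dhcr7 (−0.31), Hsd17b7 (−0.29), the epoxidase Sqle (−0.28) and Fdps (−0.26) were lower, and Hmgcs1 differed by −0.02 and did not pass. The difference of Lss was −0.31 without CAST and 0.27 within 1 run of columns. The count was 9 also under median scaling and without CAST.

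Of 34 measured genes of glutathione and detoxification enzymes 9 were higher and 1 lower, against 8.51% and 6.72% of all genes. The median was 0.0251. The higher ones were the glutathione transferases Gstt1 (0.61), Gsta4 (0.53), Gstt3 (0.44) and Gstm5 (0.38), catalase (Cat, 0.50), the epoxide hydrolase Ephx1 (0.29), Gpx3 (0.28), Prdx2 (0.25) and Glo1 (0.20), a glyoxalase. Gstm6 was lower by 2 probes (−0.80), and the Gstm genes resemble each other, so that their probes may share signal. Gstm5 differed by 0.24 without NZO (adjusted p = 0.055) and by 0.24 without CAST. Its means were 11.39 in NZO and 11.40 in CAST, against 12.79 in C3H and 12.61 to 12.90 in the remaining strains. Against each remaining strain alone Gstm5 did not pass (adjusted p of 0.388 or more in limma). Glo1 depended on single strains: it differed by 0.30 without AJ, by 0.12 without C57 (adjusted p = 0.109) and by 0.13 without WSB (adjusted p = 0.0635), with NZO left out its adjusted p was 0.0574, under median scaling it was 0.481, and its sign turned within 3 runs of columns.

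Of 16 cell cycle genes Mcm6 (0.68), Mcm4 (0.27) and Ccnd1 (0.21) were higher, against 8.51% of all genes. The 3 probes of Mcm6 all passed (0.68, 0.48 and 1.26), the second of Mcm4 did not (0.16, adjusted p = 0.645), and of the other 2 of Ccnd1 one passed (0.26) and one did not (−0.05, adjusted p = 0.8996). Mcm6 had a mean of 7.97 in C3H, against 5.67 in 129 and 5.65 in DBA. It differed by 0.45 with 129 alone left out and by 0.45 with DBA alone left out, and leaving out both was not run. Against each remaining strain alone Mcm6 did not pass (adjusted p of 0.135 or more in limma). Mcm4 had an adjusted p of 0.224 under median scaling and was −0.12 within 1 run of columns, and Ccnd1 lost its call under 25 alternatives, with a difference of 0.09 without WSB (adjusted p = 0.476) and of −0.04 within 1 run. Of 23 oxidative phosphorylation genes 8.7% were called, against 15.2% of all genes. Ndufv2 was higher (0.18) and Ndufs3 lower (−0.18), both by little. Ndufv2 was −0.08 without CAST (adjusted p = 0.531) and −0.28 within 1 run, and Ndufs3 was −0.10 without C3H replicate 1 (adjusted p = 0.389). Of 15 ribosomal protein genes Rps3 (−1.76) and Rps2 (−0.37) were lower (13.3%, against 6.72% of all genes). CAST and DBA had Rps3 means of 10.45, as low as C3H (10.51). The second probe of Rps3 differed by 0.21 and did not pass, and within 1 run Rps3 was 0.28 and Rps2 0.11. The stress transcription factor Atf4 (−1.08) was the 1 gene lower of 18 heat shock and unfolded protein genes (5.56%, near the 6.72% of all genes). Atf4 was high in C57 (11.27) and CAST (11.51), and the remaining strain means of 7.47 to 8.16 were near C3H (7.70). It differed by −0.69 without CAST (adjusted p = 0.0676). Of 6 measured erythroid genes 2 were higher and 2 lower, against 8.51% and 6.72% of all genes. Beside the beta-globins the alpha-globin Hba-a1 was higher (0.65, with an adjusted p of 0.0921 without WSB) and the carbonic anhydrase Car2 was lower (−0.33).

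**Figure D3:**
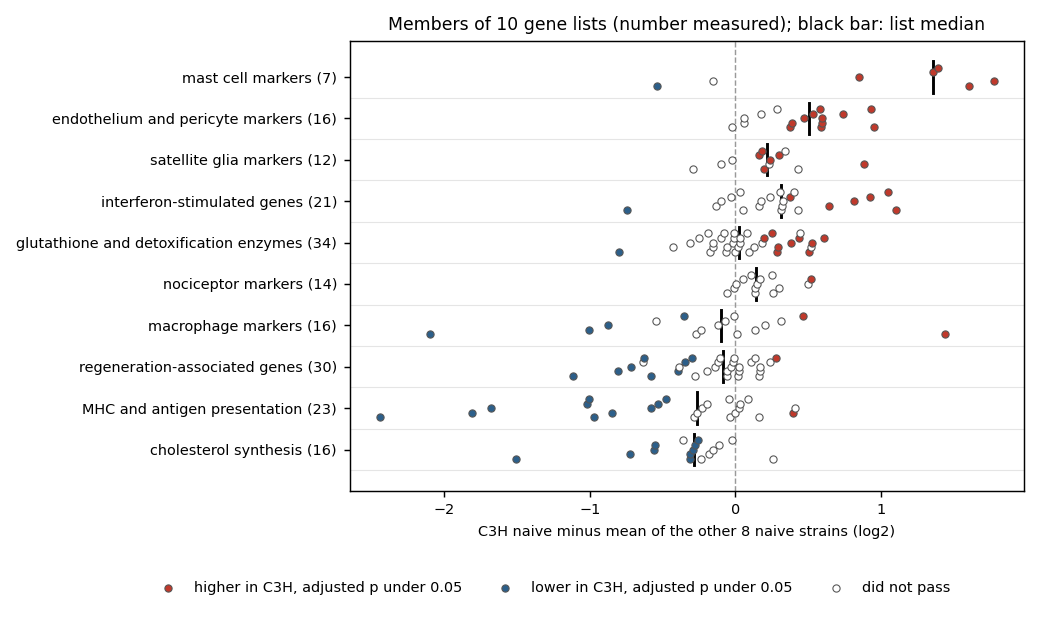
Log2 difference of naive C3H minus the mean of the other 8 naive groups (one axis) for the measured members of 10 gene lists, 1 dot per gene, with a black bar at each list's median. The medians of the mast cell list (1.36) and the endothelium and pericyte list (0.506) lie above 0, and those of cholesterol synthesis (−0.283) and the histocompatibility genes (−0.267) below it.

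C3H was set against each of the other strains to see which it resembled. These comparisons share the C3H arrays. Against AJ 828 genes (7.01%) differed, 448 higher (3.79%) and 380 lower (3.22%) in C3H, and against DBA 868 (7.35%), 420 higher (3.55%) and 448 lower (3.79%). AJ and DBA thus gave the fewest calls. Against 129 the count was 1447 (12.2%), 737 higher (6.24%) and 710 lower (6.01%), and against NZO 1506 (12.7%), 803 higher (6.8%) and 703 lower (5.95%). Against NOD it was 1509 (12.8%), 754 higher (6.38%) and 755 lower (6.39%), and against C57 1604 (13.6%), 761 higher (6.44%) and 843 lower (7.13%). The wild-derived strains gave the most calls. Against WSB 2105 genes (17.8%) differed, 1167 higher (9.88%) and 938 lower (7.94%), and against CAST 4379 (37.1%), 1987 higher (16.8%) and 2392 lower (20.2%). The median size of the difference over all genes was 0.127 against DBA, 0.145 against AJ and 0.262 against CAST. AJ had 3 naive arrays where the others had 4, so its contrast was measured with fewer arrays. The neighbouring counts from 129 to C57 were closer to each other than the range that leaving out single arrays gave (1258 to 1506 for 129 and 1327 to 1660 for C57).

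The 8 comparisons were then read together. Of all 11815 genes tested, 26 were called higher against all 8 strains separately and 29 lower, 55 in all. Of the same 11815 genes, 861 were called higher than at least 1 strain and lower than at least 1 other, and 5364 were called against none.

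**Figure D4:**
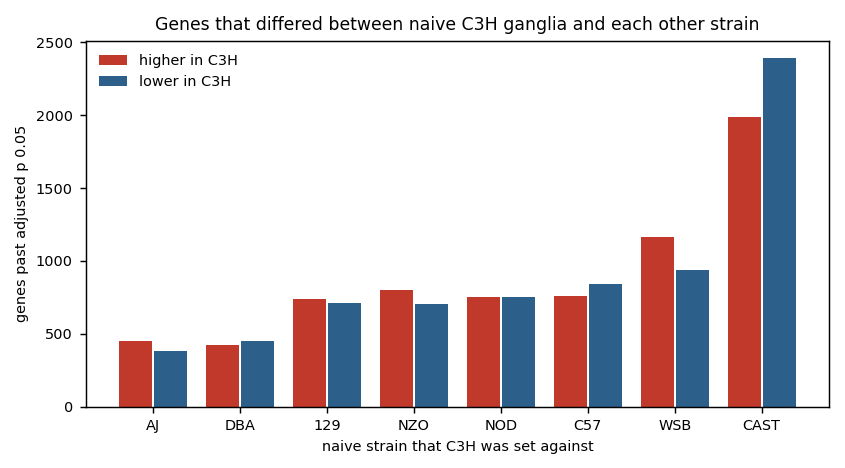
Number of genes (vertical axis) called at an adjusted p below 0.05 between naive C3H and each other naive group. Red bars count genes higher in C3H and blue bars genes lower in C3H, with the strains ordered from AJ (828 in all) over DBA (868) to CAST (4379).

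The axotomy arrays came from other samples of the same strains and gave a second reading of the strain differences. After axotomy 2121 genes (18%) differed between C3H and the mean of the other 8 strains, 1111 higher (9.4%) and 1010 lower (8.55%). Of the 1800 naive calls 1144 were called there with the same sign, which is 63.6% of the naive and 53.9% of the axotomy calls, and 8 were called with the opposite sign. Of the 59 genes whose C3H arrays did not overlap with the others in naive ganglia, 54 were called again with the same sign. The mast cell list again had 5 higher and 1 lower of 7, the endothelium and pericyte list 10 higher of 16 and cholesterol synthesis 4 lower and 2 higher of 16. The histocompatibility list had 6 higher and 8 lower of 23 after axotomy, against 1 higher and 10 lower in naive ganglia, and the regeneration list 1 higher and 3 lower of 30, against 1 higher and 8 lower. The interferon list had 18 higher of 21 after axotomy, with a median of 0.958, against 6 higher and a median of 0.311 in naive ganglia, and no difference between list counts was tested.

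The change of the strain difference with axotomy was tested as an interaction, and 131 genes (1.11%) passed, 78 with a positive value (0.66%) and 53 with a negative one (0.449%). Among the 1800 naive calls 55 passed (3.06%). The naive calls were chosen by the naive values that the interaction subtracts, so a smaller difference after axotomy is favoured by the choice. Ptpn22 differed by 0.11 after axotomy, against 2.79 in naive ganglia, and after axotomy the C3H arrays (5.73 to 6.57) lay among the others (5.01 to 6.77). The interaction was −2.68 (SE 0.28, adjusted p = 2.15e-10). Klk1b22 was 4.47 and Klk1b27 1.41 higher after axotomy, against 5.34 and 2.43 in naive ganglia, and both interactions passed (−0.87 and −1.02). Hbegf was 1.31 higher after axotomy, against 2.00 in naive ganglia. Zswim4 was lower by more after axotomy (−4.68, against −4.02), and Ly86 by less (−1.25, against −2.10). For the interferon gene Irf7 the differences were 2.27 after axotomy and 0.18 in naive ganglia.

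**Figure D5:**
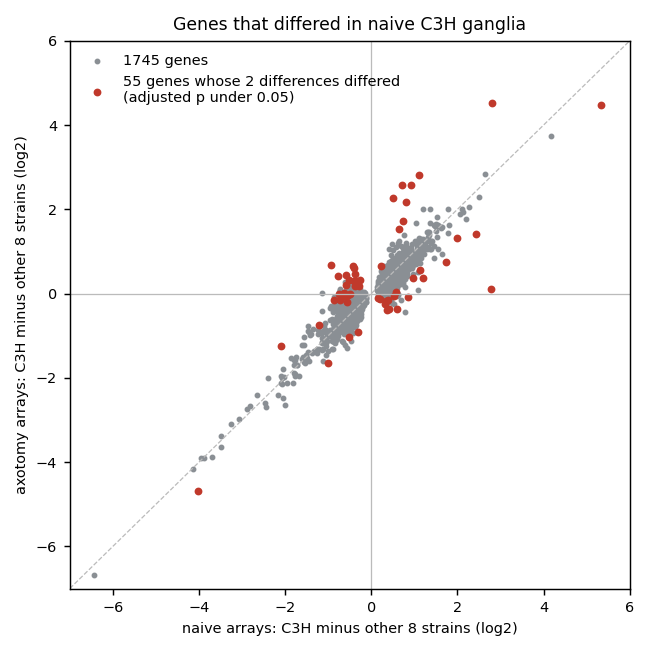
Log2 difference of C3H from the other 8 strains after axotomy (vertical axis) against the same difference in naive ganglia (horizontal axis) for the 1800 genes called in naive ganglia. The 55 red dots are genes whose differences differed between the treatments and the 1745 grey dots the rest. Most dots lie on the same side of 0 on both axes (1705 of 1800).

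Probes of the same gene were compared where there were several. Of 3261 such genes 543 were called by the probe used, the brightest on average. All other probes had the same sign in 367 of the 543 (67.6%) and were also called in 120 (22.1%), and in 23 at least 1 other probe was called with the opposite sign. Of 43 genes called with at least a 2-fold difference, 36 had all probes on the same side, 25 had all of them called and 2 had another probe called with the opposite sign. Chrnb3, Chrna6, Copz2, Cpa3, Ccl27a and Aif1 were among the genes whose probes had the same sign, while Aqr, Chl1 and Rps3 rested on 1 probe.

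Called genes were also looked up by their order along the chromosomes in the RefSeq table. Of 1798 called genes with a place in it, 359 (20%) had a neighbour among the tested genes that was called in the same direction. The share was 22.2% for genes called higher and 17.1% for genes called lower. Of all genes 8.51% were called higher and 6.72% lower, and a gene can have a neighbour on either side. Whether called genes lay together more often than chance gives was not tested. There were 16 runs of at least 3 neighbouring genes called in the same direction, the longest of 4. One run, chosen after its values were seen, was Hoxb9 (−0.58), Hoxb7 (−0.36), Hoxb6 (−0.42) and Hoxb5 (−0.40), transcription factors that mark position along the body axis, all lower in C3H. Another was Tpsab1, Tpsb2 and the calcium channel gene Cacna1h, all higher, and H2-DMa, H2-DMb1 and Psmb9 were lower together.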

How the data were processed

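The deposited intensity table gives, per the file headers, an intensity and a detection p-value for each of 25697 probes on 72 Illumina arrays, hybridised with biotinylated cRNA per the labels. The sources used here do not name the software that made them. Of the 72 columns, 2 belong to no labelled sample (the series design calls them technical outliers) and were not used. The authors also deposited a log2 matrix, which equals the log2 intensities after quantile normalization, without background correction (largest difference 5e-09).

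The background was removed with limma's nec function, which uses the detection p-values (limma 3.58.1, R 4.3.3, offset 16). The log2 was then taken, and quantile normalization followed. Background correction widens differences of dim genes, and quantile normalization assumes the same distribution of values on all arrays. Probes with a detection p-value below 0.05 on at least 3 of 70 arrays were kept (17616, of which 16568 had a symbol), and a gene with several was read from the probe with the highest mean, which left 11815 genes. Symbols came from the platform annotation: 23978 probes had 1 symbol and 1719 none, and 23962 matched RefSeq. limma fitted 1 mean per group over 18 groups (52 residual degrees of freedom, prior 8.62), with Benjamini-Hochberg adjustment over all genes and two-sided tests. Fold bounds and floored folds raised a group to each array's lowest signal above background only where none of its arrays was above background. Groups with some arrays above it kept their measured mean. For genes lower in C3H only the C3H group was raised. The replicate numbers did not pair the samples (mean residual correlation 0.00809 over 136 same-numbered pairs), and no array duplicated another (highest correlation 0.997). How precise a value is depends on how many arrays its group holds.

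Named genes were the 12 highest and 12 lowest called genes on the same side of all 8 strain means, up to 3 members per list with the smallest adjusted p, genes above background in C3H alone or in all but C3H, and Inhba, Inhbb, Fst, Atf3, Gal, Npy, Gap43, Tlr4 and Glo1. Other genes were named after their values were seen. The members and gene lists were chosen with earlier results of these data known, and no list was tested as a set.

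The settings varied were the source (the authors' matrix), no background correction, an offset of 50, median scaling, other filters, all probes or their mean, array weights, naive arrays alone, blocks by replicate number or column run, values within runs, and a required fold of 1.5. Each strain and each array was also left out in turn. Leaving out NOD and WSB together was added after the data were seen.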

Additional observations from a re-analysis of the deposited data

Results flagged for a closer look

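For 4 of the 94 named genes the value of 1 C3H array lay far from the other 3, which chance gives in about 1 in 20 groups. Replicate 1 was the low one for Aif1 (8.298, the others 8.66 to 8.69) and for Cpa3 (8.671, the others 8.92 to 8.95), and it stood apart for Mfap5 (9.465). Replicate 2 stood apart for Mcm4 (10.51). Aif1 and Cpa3 kept their calls without that array, and Mfap5 did not.

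For 9 of the 94 named genes the difference of C3H from the other strains changed with axotomy by limma's interaction test, which 1.11% of all genes passed. Most named genes were chosen by the naive values that the interaction subtracts. A smaller difference after axotomy is therefore favoured by the choice. It was smaller after axotomy for Klk1b22 (−0.871, SE 0.23, adjusted p = 0.0372), Ptpn22 (−2.684, adjusted p = 2.15e-10), Klk1b27 (−1.023, adjusted p = 0.00203) and Hbegf (−0.684, adjusted p = 0.0181). Zswim4 was lower by more after axotomy (−0.659, adjusted p = 8.10e-05), as was Fcer1g (−0.647, adjusted p = 0.0279). The deficit of Ly86 (0.844, adjusted p = 9.01e-07), Ifi35 (0.734, adjusted p = 0.0328) and Mvd (0.562, adjusted p = 0.0162) was smaller after axotomy. After axotomy Ifi35 differed by −0.01 and Mvd by −0.16.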

How the results depend on the processing

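Of 90 named genes called, 39 kept their call in every setting tested, and 63 lost it in none apart from the demand for a fold of at least 1.5. That demand left 163 genes, 81 higher and 82 lower. Median scaling lowered the genes called higher to 649 against the mean of the naive groups, 710 after axotomy, 482 against 129, 421 against C57 and 485 against NOD, and the interaction to 83 genes, 24 of them lower. The cause was not tested. The authors' matrix and the lack of background correction moved 41 named differences by over 1.5 times, among them Klk1b22 (3.02), Olfr1463 (1.72) and Pdrg1 (−3.65).

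Leaving out 1 array gave 1418 to 1862 calls against the naive mean, 802 to 1033 of them higher and 616 to 831 lower, and 1712 to 2133 after axotomy, and moved no count by over 1.5 times. The sign turned for Ndufv2 without CAST (−0.0754) and within single runs of columns, each with 1 C3H array and no test. These were Kcns1 (0.143), Rgs5 (−0.0339), Chl1 (0.0338), Atf3 (0.215) and Mcm4 (−0.118) in run 3, Apoe (−0.0698), H2-Aa (0.428), Rps3 (0.275), Rps2 (0.111), Ccnd1 (−0.0414) and Glo1 (−0.0158) in run 5, Ntrk2 (−0.0368) and Glo1 (−0.0849) in run 6, and Ly86 (0.474), Hbb-bt (0.74), C4b (0.00659), Chl1 (0.0909), Lss (0.266), Ndufv2 (−0.279) and Glo1 (−0.0859) in run 8. Runs as a fixed block gave 2035 calls and as a random block 2012.

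With the replicate number as a block the naive comparison gave 1789 calls and the axotomy comparison 2121. Same-numbered samples did not deviate together: a C3H array and another strain's of the same number had a mean residual correlation of −0.0165 over 31 pairs.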

Other observations

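Some large differences are not among the 12 highest or lowest because C3H was not on the same side of all 8 strains, and they are given here after their values were seen. Casp9, an initiator protease of apoptosis, differed by −4.13, with a C3H mean of 5.90 and other strain means from 5.60 to 11.49. Gbp2b, a guanylate-binding protein induced by interferon, was 4.53 higher in C3H after axotomy and 2.81 higher in naive ganglia, with an interaction that passed in limma (adjusted p = 0.000556). Its C3H mean was 8.86, and the other strain means ran from 4.98 to 8.90.

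A few single genes whose 4 C3H arrays did not overlap with the others in naive ganglia were also named after their values were seen. Syt1, the calcium sensor of vesicle release, averaged 10.59 ± 0.24 in C3H (SD, n = 4), against 11.65 over the other strains (−1.06, strain means 11.37 to 12.10). Syn2, a synapsin, averaged 11.31 in C3H and 12.09 over the others (−0.79). Cdk5r1, the activator of the kinase Cdk5, differed by −0.97. After axotomy the differences were −0.87 for Syt1, −0.54 for Syn2 and −0.86 for Cdk5r1. Camk2n1, an inhibitor of CaM kinase II, differed by −0.63 in naive ganglia, whereas after axotomy its difference was 0.01 (adjusted p = 0.939 in limma). Igfbp5, a binding protein of insulin-like growth factors, was above all 8 strains, with 12.55 in C3H and 11.89 over the others (0.66).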
